A study of Homo sapiens with 6 samples.

Results

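The genes described here are 10 of 5 families of heterogeneous nuclear ribonucleoproteins (hnRNPs), namely HNRNPH1, HNRNPH2, HNRNPH3 and HNRNPF of the H/F family, HNRNPC, HNRNPM, HNRNPR with its paralogue SYNCRIP, and HNRNPU with HNRNPUL1. They were taken by gene symbol from the 60607 genes of the deposited tables, in which they had 207 of 234326 transcripts. The data are RNA-seq of PLC/PRF/5, an established human hepatocellular carcinoma line, harvested 48 h after transfection with siSlu7, which targets SLU7, a splicing factor, or with siGL2, an siRNA without relevance to the cells that served as negative control. Each group had 3 libraries of polyA RNA, called control and knockdown below. The labels do not say whether the 3 libraries of a group came from separate cultures, so every p-value below reflects the spread of these libraries, which may be technical.

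hnRNPs coat RNA as it is transcribed and steer its splicing, 3′ end formation, export and translation, each through its own RNA motifs. The H/F proteins bind runs of G, the C protein binds runs of U and packages nascent transcripts, the M protein binds GU-rich RNA, the R and Q (SYNCRIP) proteins bind mRNA in the nucleus and the cytoplasm, and the U protein links RNA to chromatin. Many genes of this kind limit their own protein by making transcripts that keep an intron or are removed by nonsense-mediated decay. SLU7 serves splicing at the step in which the 3′ splice site is cut and the exons are joined.

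Estimated counts assigned to transcripts came to between 7736584 and 8693977 in the controls and between 5191452 and 6315740 in the knockdowns. SLU7 itself had 20.7, 17.0 and 18.3 CPM (counts scaled to library size with TMM factors) in the controls and 9.31, 8.23 and 10.4 CPM in the knockdowns, and it fell (log2 fold change -1.002, SE 0.18, edgeR quasi-likelihood test, Benjamini-Hochberg adjusted p = 0.0139). Of 9 hepatocyte markers none was without counts, and their summed level ran from 18588 to 29251 CPM in the controls and from 17326 to 23491 CPM in the knockdowns. APOB and SERPINA1 carried most of it, while ALB lay between 20.8 and 25.6 CPM, APOH between 4.65 and 7.13 CPM and TTR between 1.20 and 5.19 CPM. The 4 leukocyte markers summed to 50.6 to 67.2 CPM in the controls and 48.8 to 56.0 CPM in the knockdowns, mostly CD68 and LYZ, and the fibroblast and endothelial markers to between 0.998 and 4.82 CPM in the libraries. Control replicate 1 and knockdown replicate 3 differed from the rest of their groups in a like way, and their deviations from the group means correlated over the 17109 tested genes (r = 0.44). Knockdown replicate 1 correlated with control replicate 3 at 0.38 and with control replicate 2 at 0.242. Deviations from a group mean sum to 0, so these values are not independent. In 8 of the 10 hnRNP genes control replicate 1 was the highest control, and in 9 of 10 knockdown replicate 3 was the highest knockdown, against 40.3% of all tested genes for each.

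Introns kept by 5 of the transcripts described below are shown first, as examples of what a retained intron is in these genes. Reads in introns were not counted as such, and none of these transcripts passed the edgeR transcript test. Coordinates are those of GENCODE 29 (GRCh38) and sequences are from its transcripts, which hold the intron as part of an exon. Each is printed 5′ to 3′ on the strand of the gene, with 3 exon bases at either end. Capitals mark the first and last 2 bases of the intron, where the spliceosome cuts. Retained-intron transcripts are those that the annotation says keep an intron. HNRNPH1-210 keeps an intron of 56 bases at chr5:179617933-179617988, which 8 of 26 coding HNRNPH1 transcripts splice out. HNRNPH1-212 and HNRNPH1-223 both keep one of 206 bases at chr5:179621036-179621241, spliced out by 15 of 26. HNRNPU-202 keeps one of 84 bases at chr1:244862535-244862618, spliced out by 4 of 10 coding HNRNPU transcripts. HNRNPH3-210, annotated as a processed transcript without a reading frame, keeps introns of 275 and 78 bases that both coding HNRNPH3 transcripts splice out, of which the shorter, at chr10:68341681-68341758, is shown. These 4 introns lie between coding exons, and the first 3 are on the minus strand.
HNRNPH1-210: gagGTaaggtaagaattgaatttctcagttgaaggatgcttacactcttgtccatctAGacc
HNRNPH1-212: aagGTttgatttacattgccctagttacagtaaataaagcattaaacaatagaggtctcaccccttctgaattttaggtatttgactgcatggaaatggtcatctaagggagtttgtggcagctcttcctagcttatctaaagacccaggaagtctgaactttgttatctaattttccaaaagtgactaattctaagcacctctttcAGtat
HNRNPU-202: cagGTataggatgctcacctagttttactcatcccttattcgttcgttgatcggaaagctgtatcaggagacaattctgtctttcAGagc
HNRNPH3-210: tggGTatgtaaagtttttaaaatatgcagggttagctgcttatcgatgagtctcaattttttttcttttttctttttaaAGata

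HNRNPC-228 keeps an intron of 330 bases at chr14:21263337-21263666 on the minus strand, outside the coding exons, that 4 of 26 coding HNRNPC transcripts splice out. Only its 3′ splice site is shown, with the 20 bases before the final AG in which pyrimidines make up 85.0%.
HNRNPC-228: ttttatttttgtttttttacAGtga
All 5 introns begin with GT and end with AG. Pyrimidines made up 75.0% of the 20 bases before the AG in the HNRNPH1-210 intron, 70.0% in the HNRNPH1-212 intron, 55.0% in the HNRNPU-202 intron and 90.0% in the shorter HNRNPH3-210 intron.

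At the level of whole genes HNRNPH3 and SYNCRIP rose in the knockdown, 2.09-fold and 1.61-fold, and no member fell past the test. These were 2 of 10 members, against 5.93% of all 17109 tested genes higher and 7.94% lower (13.9% in either direction). The log2 fold change was above 0 in 9 of the 10, with a median of 0.50, against -0.0068 over all genes tested. An unadjusted p under 0.05 was reached by 7 of 10 members and by 32% of all genes. In 4 members every knockdown was above every control (17.8% of all genes) and in 1 every knockdown was below (18.8%), 36.6% in either direction. In bulk RNA a difference in the number of cells that express a gene and one in the RNA per cell cannot be told apart.

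**Figure D1:**
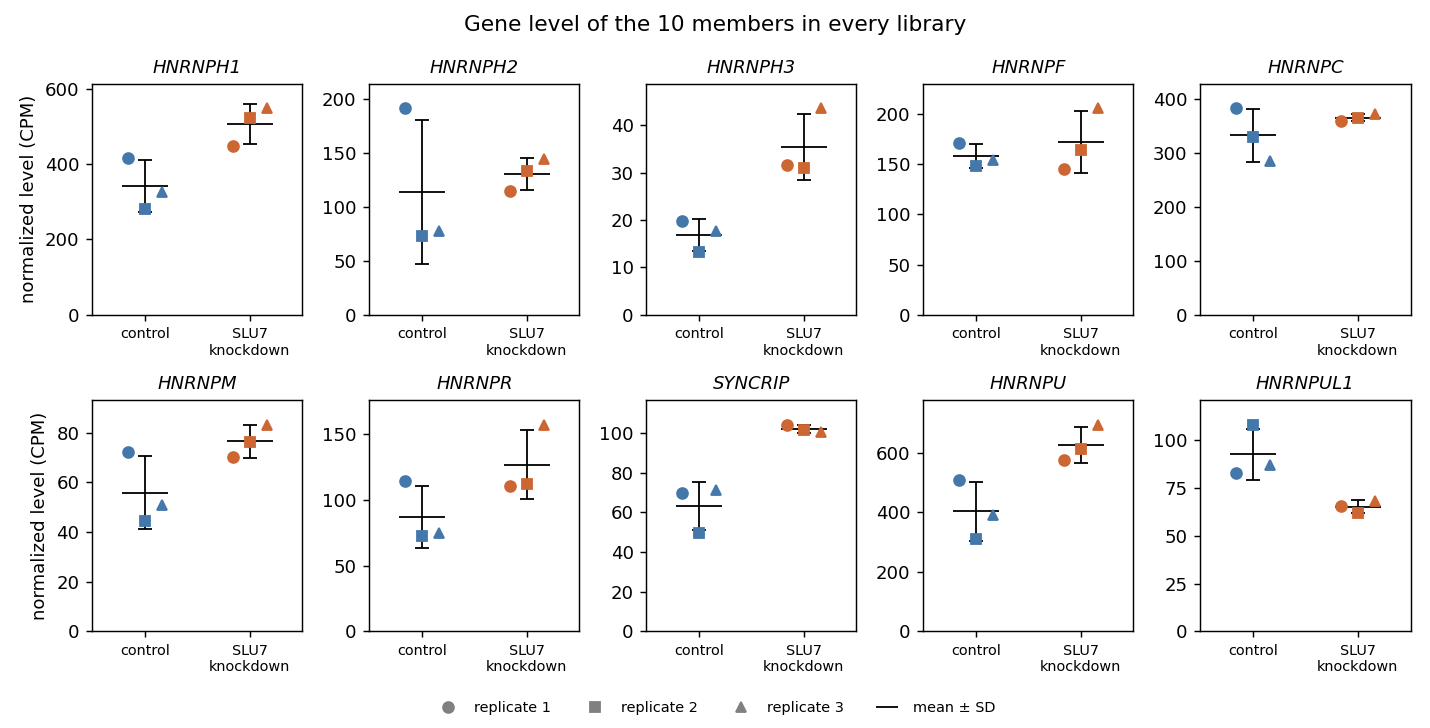
Level of each of the 10 hnRNP genes in CPM (y axis, starting at 0) in the 3 control and 3 SLU7 knockdown libraries; symbols give the replicate number and black bars the mean ± SD. HNRNPH3, SYNCRIP, HNRNPH1 and HNRNPU had no overlap and were higher in the knockdowns, HNRNPUL1 had none and was lower, and control replicate 1 was the highest control in 8 panels.

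HNRNPH3, the smallest of the H/F family and a binder of G runs, lies on chromosome 10 (68331174 to 68343191, plus strand). It had 19.8, 13.2 and 17.8 CPM in the controls and 31.6, 31.1 and 43.6 CPM in the knockdowns. The lowest knockdown was well above the highest control. Its log2 fold change was 1.06 (SE 0.21, adjusted p = 0.0176), the largest of the 10 in the main analysis. HNRNPH3 overlaps 2 genes on the other strand, RUFY2 and PBLD, and the strand setting of the counting is not given in the sources used here. RUFY2 had 44.8, 26.6 and 25.5 CPM in the controls and 49.9, 49.9 and 54.9 CPM in the knockdowns (adjusted p = 0.0766), and its part in the HNRNPH3 values was not tested.

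The other H/F genes did not pass the test. HNRNPH1, a splicing regulator on chromosome 5 (179614178 to 179634784, minus strand), had 417, 281 and 326 CPM in the controls and 448, 522 and 547 CPM in the knockdowns. The groups did not overlap, with a log2 fold change of 0.57 (SE 0.20, adjusted p = 0.0874). HNRNPH2, its near copy on the X chromosome (101408295 to 101414133, plus strand), had 191, 73.0 and 77.7 CPM in the controls and 115, 133 and 144 CPM in the knockdowns. Control replicate 1 was above every knockdown while the other controls were below, so the groups overlapped (log2 fold change 0.20, SE 0.35, adjusted p = 0.733). HNRNPF, which binds G runs through the same kind of domain, lies on chromosome 10 (43385617 to 43409166, minus strand). It had 171, 148 and 155 CPM in the controls and 145, 164 and 205 CPM in the knockdowns, with knockdowns both below and above the controls (log2 fold change 0.12, SE 0.18, adjusted p = 0.674).

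HNRNPC, on chromosome 14 (21209136 to 21269494, minus strand), competes with the 3′ splice site factor U2AF for runs of U. It had 382, 329 and 285 CPM in the controls and 359, 365 and 373 CPM in the knockdowns. The knockdowns lay within the range of the controls (log2 fold change 0.14, SE 0.17, adjusted p = 0.619). HNRNPM, a regulator of alternative exons on chromosome 19 (8444767 to 8489114, plus strand), had 72.3, 44.4 and 50.7 CPM in the controls and 70.1, 76.3 and 83.1 CPM in the knockdowns. Control replicate 1 alone reached into the range of the knockdowns (log2 fold change 0.45, SE 0.20, adjusted p = 0.152).

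SYNCRIP, also called hnRNP Q and known for roles in mRNA stability and translation, lies on chromosome 6 (85607785 to 85643792, minus strand). It had 69.5, 49.3 and 71.0 CPM in the controls and 104, 101 and 100.3 CPM in the knockdowns. The knockdowns were close to one another and all above the controls (log2 fold change 0.69, SE 0.17, adjusted p = 0.0325). Its paralogue HNRNPR, on chromosome 1 (23303771 to 23344336, minus strand), had 114, 72.2 and 74.8 CPM in the controls and 111, 112 and 157 CPM in the knockdowns. Here control replicate 1 lay above 2 of the knockdowns, and the gene did not pass the test (log2 fold change 0.54, SE 0.23, adjusted p = 0.141).

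HNRNPU, the scaffold attachment factor that ties RNA to chromatin, lies on chromosome 1 (244840638 to 244864560, minus strand). It had 507, 311 and 390 CPM in the controls and 576, 611 and 693 CPM in the knockdowns. The groups did not overlap, and the gene missed the threshold (log2 fold change 0.64, SE 0.21, adjusted p = 0.0777). HNRNPUL1, a U-like protein with roles in transcription and DNA repair on chromosome 19 (41262496 to 41307598, plus strand), was the member with a negative value. It had 82.8, 108 and 86.9 CPM in the controls and 65.6, 61.8 and 68.4 CPM in the knockdowns, without overlap (log2 fold change -0.50, SE 0.15, adjusted p = 0.0613). The mean effective length of its transcripts was 1832 bases in the controls and 1245 bases in the knockdowns, so its reads were assigned to shorter transcripts in the knockdowns. With offsets for that length its log2 fold change was -0.01, and on the scale of log2(TPM + 1) in limma it was 0.53, a scale on which the median over all genes was 0.352. HNRNPUL1 overlaps TGFB1, a gene on the other strand. TGFB1 had 13.7, 14.1 and 15.6 CPM in the controls and 8.55, 10.2 and 13.2 CPM in the knockdowns (adjusted p = 0.173). Its part in the HNRNPUL1 values was not tested.

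Levels can be compared between genes per length, in TPM, the deposited unit that divides by transcript length. In the controls HNRNPH1 led with 261 ± 88.6 TPM (SD, n = 3), followed by HNRNPC with 179 ± 63.2 and HNRNPU with 57.5 ± 20.7 TPM. HNRNPF, HNRNPM, HNRNPR, HNRNPH2 and HNRNPUL1 followed with means from 33.8 down to 22.2 TPM, and SYNCRIP with 11.4 ± 3.73 and HNRNPH3 with 8.50 ± 3.23 TPM were the lowest. The ranges of the 3 controls did not overlap between HNRNPC and HNRNPU, nor between HNRNPUL1 and SYNCRIP, and they overlapped for every other pair of neighbours in this order. The 2 members that rose past the gene test were thus those with the lowest control levels. In the knockdowns they had 25.3 ± 0.379 TPM (SYNCRIP) and 23.6 ± 7.63 TPM (HNRNPH3). On this scale the mean of every member was higher in the knockdowns, up to 530 ± 73.4 TPM in HNRNPH1, and in HNRNPUL1 it was 32.6 ± 2.80 TPM. TPM rose in general, with a median log2 fold change of 0.352 over all genes in log2(TPM + 1).

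The gene calls depended on which libraries were used. Without control replicate 1, the test called 8 of 10 members, namely HNRNPH1, HNRNPH2, HNRNPH3, HNRNPM, HNRNPR, SYNCRIP and HNRNPU higher and HNRNPUL1 lower, against 25.3% of all genes. Without both control replicate 1 and knockdown replicate 3, a choice made after seeing the data, it called the same 8, against 29.8% of all genes. Leaving out any single one of the other 5 libraries left no member past the test, while between 0% and 5.64% of all genes passed. DESeq2 on all libraries called 5 members (HNRNPH1, HNRNPH3, SYNCRIP and HNRNPU higher, HNRNPUL1 lower), against 15.4% of all genes.

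**Figure D2:**
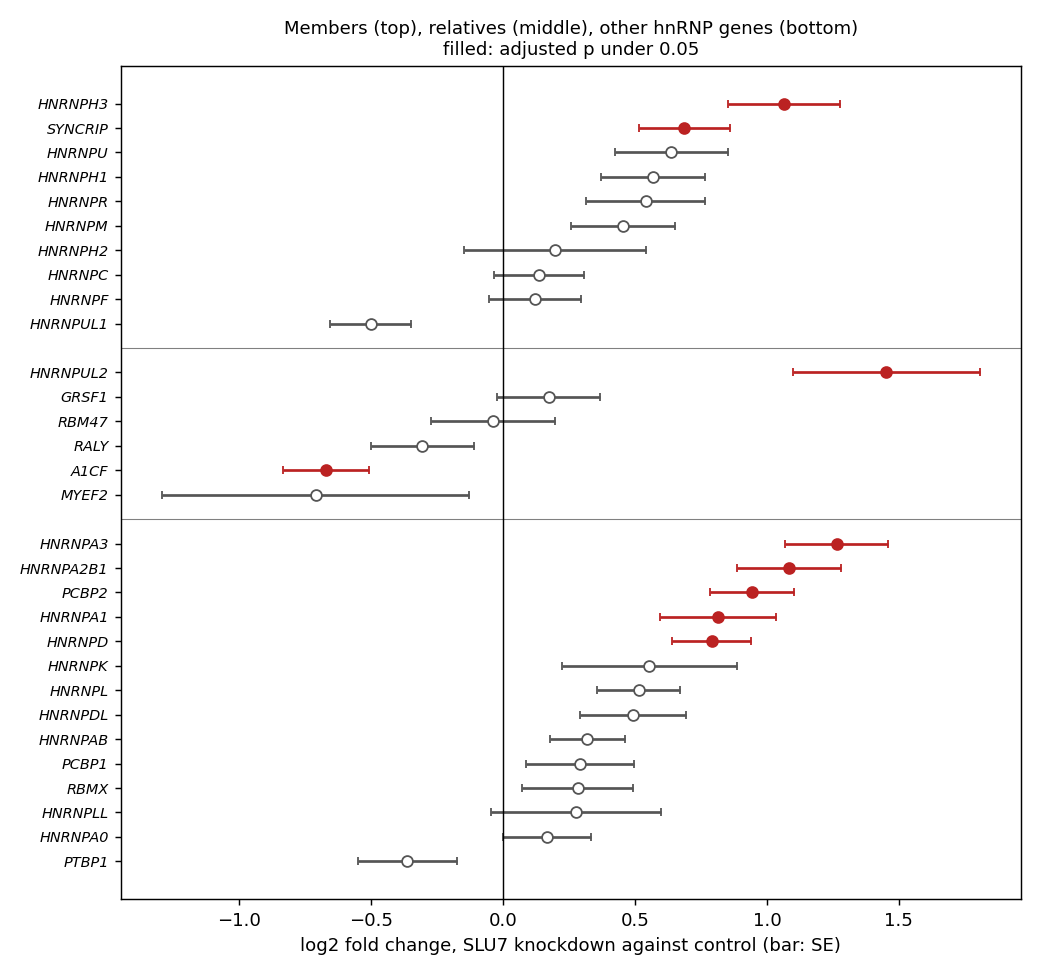
Log2 fold change of knockdown against control (x axis, with bars for 1 SE) for the 10 members, 6 relatives and 14 other hnRNP genes (y axis); filled red points passed the edgeR test at an adjusted p under 0.05. HNRNPH3 and SYNCRIP stand at 1.06 and 0.69 among the members, and HNRNPUL1 alone among the members lies below 0.

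A pair of other lists shows where these genes stood. Of 6 relatives of the members, HNRNPUL2, a further U-like gene, rose from 6.36, 1.99 and 5.33 CPM in the controls to 12.1, 11.9 and 13.7 CPM in the knockdowns (log2 fold change 1.45, adjusted p = 0.0308). HNRNPUL1, which shares its domains with HNRNPUL2, had the opposite sign, and the difference between them was not tested. Neither value is corrected for transcript length. The mean effective length was 1736.5 bases in the controls and 3243.3 in the knockdowns for HNRNPUL2, and 1831.5 and 1244.6 for HNRNPUL1. A1CF, a hepatocyte RNA-binding protein that serves APOB mRNA editing and is related to HNRNPR, fell from 81.9, 87.9 and 91.1 CPM to 49.6, 65.7 and 48.6 CPM (log2 fold change -0.67, adjusted p = 0.0298). GRSF1, RALY, MYEF2 and RBM47 did not pass, and the list's median was -0.17. Of the 14 other hnRNP genes, 5 rose and 0 fell, with a median of 0.50 beside 0.50 in the members and -0.0068 over all genes. They were HNRNPA1, HNRNPA2B1, HNRNPA3, HNRNPD and PCBP2, with log2 fold changes of 0.81, 1.08, 1.26, 0.79 and 0.94.

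Within the genes, retained-intron transcripts were higher in the knockdown in HNRNPU, HNRNPH1 and HNRNPC, whose summed coding transcripts did not pass the expression test. Of the 207 member transcripts 105 had enough counts to be tested, 60 of them coding, 30 retained-intron, 6 decay and 9 processed transcripts. Of the 30 retained-intron transcripts 20 were higher in every knockdown than in every control and 1 was lower, against 25.2% and 7.64% of all 7692 tested transcripts of that type. Of the 60 coding transcripts 7 were higher and 7 lower, against 9.97% and 18.2% of 22777. By gene, all 7 tested retained-intron transcripts of HNRNPU, 7 of 13 of HNRNPH1, 4 of 5 of HNRNPC, 1 of 3 of HNRNPM and the 1 of SYNCRIP were higher without overlap, and the 1 of HNRNPUL1 was lower. The other members had none that could be tested.

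**Figure D3:**
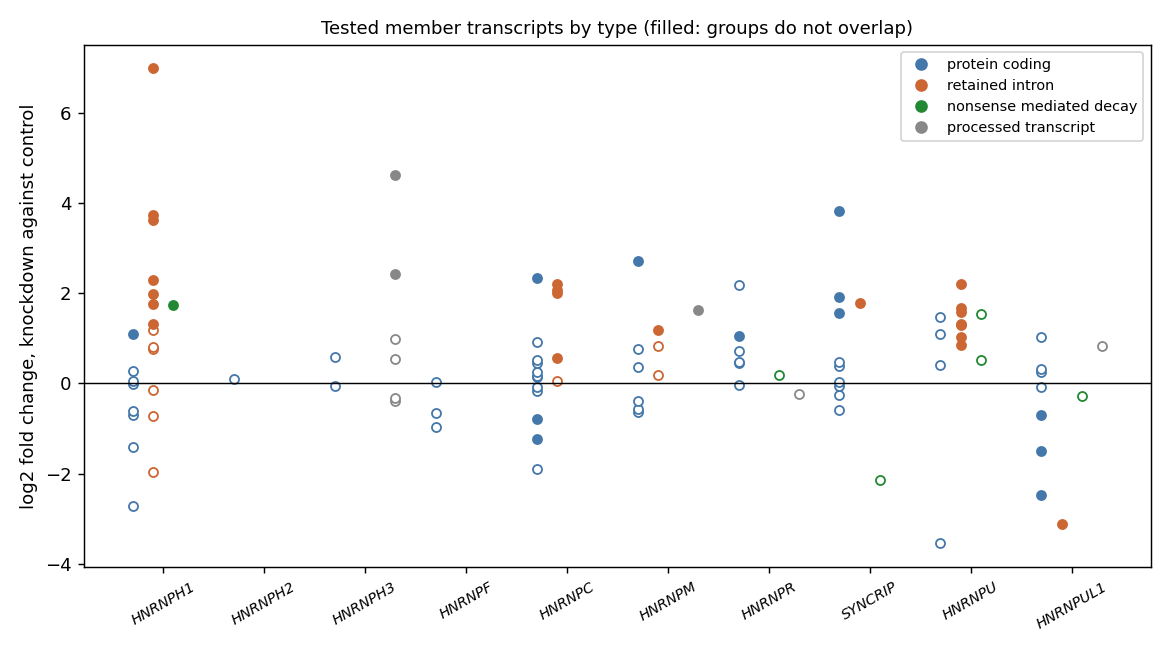
Log2 fold change of knockdown against control (y axis) for 103 of the 105 tested member transcripts, by gene (x axis) and annotated type (colour); filled points have no overlap between the groups, and HNRNPH1-203 and HNRNPC-226, with no count in any knockdown, are left out. The orange retained-intron points of HNRNPU lie all above 0 and filled, while the blue coding points lie on both sides of 0.

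No single transcript passed the transcript test with edgeR, among the members or among all 43128 tested (0% called). At an unadjusted p under 0.05 there were 23 higher and 7 lower member transcripts, where 7.51% and 8.62% of all transcripts reached that level (16.1% in either direction). DESeq2 called 14 of 129 member transcripts, against 3% of the 64137 transcripts that it tested. The values of single transcripts below are therefore descriptions.

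HNRNPU-202, with the 84-base intron printed above, had 81.4, 85.1 and 119 estimated counts in the controls against 473, 331 and 271 in the knockdowns. The knockdowns were all more than double the highest control although their libraries were smaller (log2 fold change 2.21, SE 0.27, adjusted p = 0.0994). Of its 31-base words 3.94% were in no coding HNRNPU transcript, so most reads that it was given could also have come from those. HNRNPU-217, a longer retained-intron transcript, had 346, 102 and 144 estimated counts in the controls against 375, 357 and 428 in the knockdowns, and control replicate 1 came close to them. HNRNPU-231, the longest at 13084 bases, had 210, 235 and 335 in the controls against 464, 421 and 258 in the knockdowns, and 11.5% of its words were shared with COX20, a gene on the other strand with no passed test (adjusted p = 0.191).

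HNRNPH1-210, with the 56-base intron, had 124, 54.6 and 91.0 estimated counts in the controls against 350, 376 and 318 in the knockdowns. All knockdowns were far above all controls (log2 fold change 2.28, SE 0.32, adjusted p = 0.0994). Of the 31-base words of HNRNPH1-210, 29.7% were in no coding HNRNPH1 transcript and 9.11% in no other transcript. HNRNPH1-212, with the 206-base intron, had 0.6, 0 and 0 estimated counts in the controls against 48.5, 52.9 and 41.4 in the knockdowns. All but 1 of the controls held no count. HNRNPH1-223, which keeps the same intron, had 86.8, 169, 86.5 and 39.2, 108, 19.8 in the same order, with overlap. The fitted changes of the 2 transcripts with this intron thus had opposite signs, a difference that was not tested. Neither transcript can be told from other HNRNPH1 transcripts by much of its own sequence, since 0% and 0.126% of their 31-base words were in no other transcript.

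HNRNPC-228, whose 3′ splice site is printed above, had 48.4, 21.2 and 35.2 estimated counts in the controls against 116, 125 and 89.7 in the knockdowns. Every knockdown was above every control (log2 fold change 1.997, SE 0.36, adjusted p = 0.108). None of its 31-base words occurred in another gene, but only 3.97% of them were in no coding HNRNPC transcript, so most reads that it was given, also within the intron, could have come from those. HNRNPC-229, the HNRNPC transcript with the highest count, shared 61.1% of its words with the pseudogene HNRNPCP2. HNRNPH3-210, with 2 introns kept, had 3.5, 0 and 3.2 estimated counts in the controls against 24.8, 56.1 and 58.3 in the knockdowns. Of its words 38.4% were in no coding HNRNPH3 transcript and 0% in no other transcript. HNRNPH3-207, also a processed transcript, had 3.7, 9.5 and 5.3 in the controls against 24.6, 22.9 and 35.0 in the knockdowns, with 11.6% of its words shared with RUFY2. These 2, of 8 tested, were the HNRNPH3 transcripts without overlap, against 14.1% of all tested transcripts higher and 14% lower. The coding HNRNPH3-202 had 60.7, 22.7 and 22.6 estimated counts in the controls against 33.1, 32.5 and 60.0 in the knockdowns, which overlapped.

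Of the 10 tested HNRNPUL1 transcripts, 4 were lower in every knockdown than in every control and 0 were higher. Over all 43128 tested transcripts these shares were 14% and 14.1%. The other HNRNPUL1 transcripts overlapped, and 4 of them had log2 fold changes above 0, from 0.24 in HNRNPUL1-202 to 1.03 in HNRNPUL1-220. HNRNPUL1-210, its tested retained-intron transcript, had 27.7, 82.3 and 27.8 estimated counts in the controls against 6.3, 2.7 and 3.9 in the knockdowns (log2 fold change -3.11, SE 0.65, adjusted p = 0.116). The coding HNRNPUL1-204, its most abundant transcript, had 136, 252 and 263 in the controls against 63.9, 61.1 and 60.8 in the knockdowns (log2 fold change -1.495, SE 0.33, adjusted p = 0.123). HNRNPUL1-207, also coding, had 105, 87.3 and 154 in the controls against 15, 3.3 and 31.4 in the knockdowns. HNRNPUL1-201, the fourth without overlap, had a log2 fold change of -0.70.

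The most abundant transcripts of the other members mostly overlapped between the groups. HNRNPF-201, which carried 95.4% of the counts of HNRNPF, had 1305, 1072 and 1135 estimated counts in the controls against 889, 878 and 1078 in the smaller knockdown libraries (log2 fold change 0.03, SE 0.20). SYNCRIP-205 had 315, 144 and 210 in the controls against 272, 239 and 231 in the knockdowns, although the gene as a whole rose. SYNCRIP-212, its retained-intron transcript, had 28.3, 4.8 and 37.6 in the controls against 69.9, 78.4 and 45.7 in the knockdowns, without overlap. HNRNPM-213 had 187, 86.3 and 85.1 in the controls against 145, 139 and 192 in the knockdowns, while HNRNPR-202 had 338, 265 and 254 in the controls against 308, 177 and 198 in the knockdowns.

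The remaining transcripts among the 3 most abundant of each gene showed how unevenly reads were divided within groups. HNRNPC-229, the leading HNRNPC transcript, had 1632, 387 and 297 estimated counts in the controls against 421, 424 and 740 in the knockdowns. Control replicate 1 was thus far above the other controls, and knockdown replicate 3 above the other knockdowns. HNRNPC-209 had 226, 353 and 328 in the controls against 629, 569 and 212 in the knockdowns, with knockdown replicate 3 far below the other knockdowns. HNRNPC-225, also coding, had 392, 264 and 217 in the controls against 127, 126 and 147 in the knockdowns, lower without overlap (log2 fold change -0.79, SE 0.29, adjusted p = 0.26). HNRNPR-213, a decay transcript, repeated the pattern of HNRNPC-229 with 254, 73.1 and 58.5 in the controls against 23.8, 69.9 and 236 in the knockdowns. The coding HNRNPR-214 had 88.1, 86.5 and 29.1 in the controls against 89.2, 107 and 141 in the knockdowns. After scaling for library size its knockdowns were above its controls.

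HNRNPH2 has a single transcript, HNRNPH2-201, which had 1535, 549 and 613 in the controls against 755, 727 and 778 in the knockdowns. Of its 31-base words 20.1% occurred in another gene, most of them in a readthrough transcript with RPL36A. The retained-intron HNRNPH1-205 had 117, 102 and 79.3 in the controls against 268, 198 and 136 in the knockdowns, higher without overlap (log2 fold change 1.31, SE 0.29, adjusted p = 0.122). The others overlapped. Their log2 fold changes were 0.55 in HNRNPH3-203, -0.66 in HNRNPF-202, -0.96 in HNRNPF-204, -0.63 in HNRNPM-204 and 0.36 in HNRNPM-201. In SYNCRIP-204, SYNCRIP-208, HNRNPU-226 and HNRNPUL1-208 they were 0.04, 0.39, 0.40 and -0.27.

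**Figure D4:**
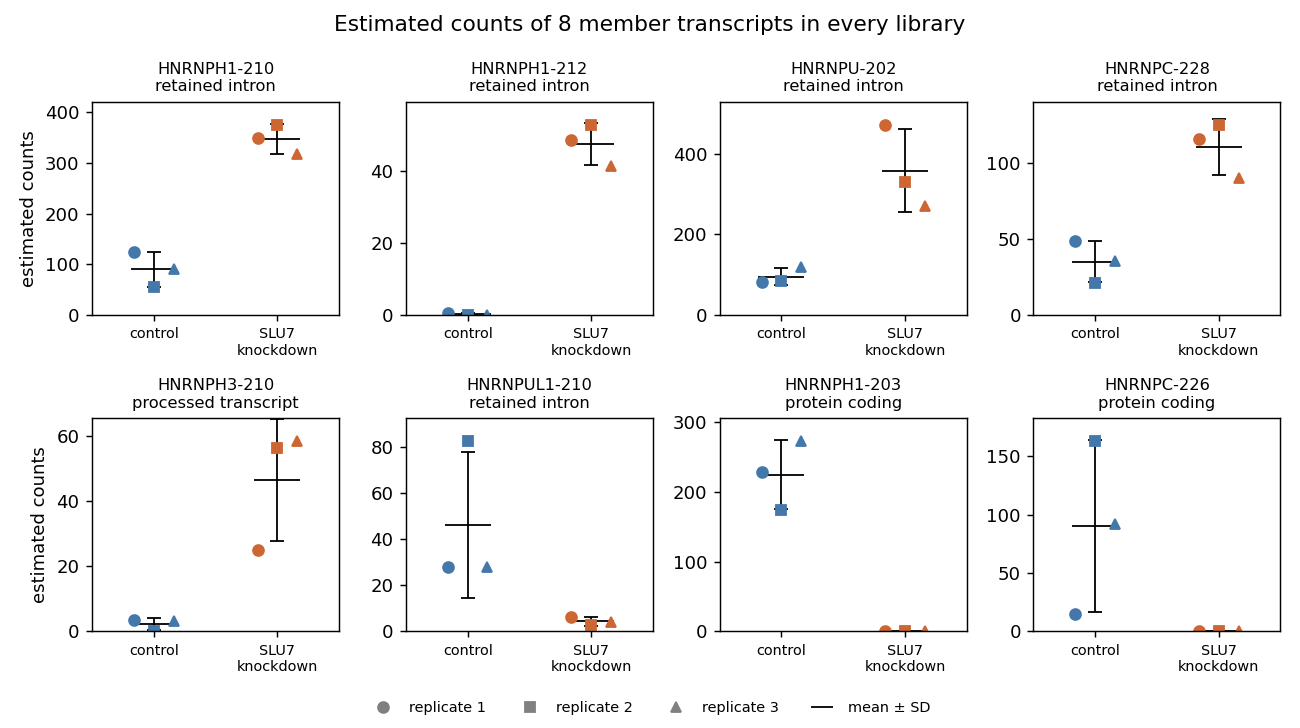
Estimated counts (y axis, starting at 0, not scaled for library size) of 8 member transcripts in the 3 control and 3 knockdown libraries; symbols give the replicate number and black bars the mean ± SD. HNRNPH1-210, HNRNPH1-212, HNRNPU-202, HNRNPC-228 and HNRNPH3-210 are higher in every knockdown, HNRNPUL1-210 is lower in each, and HNRNPH1-203 and HNRNPC-226 are at 0 in each.

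Counts were also summed per gene into coding, retained-intron, decay and other transcripts, and each sum was tested with edgeR as an expression value, a test added after seeing the data. The retained-intron sum rose in HNRNPU, HNRNPH1 and HNRNPC, 3 of the 6 members where it could be tested, against 5.29% of 4785 genes (0.752% lower). In HNRNPU it was 99.1, 82.9 and 103 CPM in the controls and 269, 262 and 237 CPM in the knockdowns (log2 fold change 1.43, SE 0.17, adjusted p = 0.0263). In HNRNPH1 it was 97.3, 81.9 and 78.5 CPM in the controls and 229, 261 and 191 CPM in the knockdowns (log2 fold change 1.40, SE 0.19, adjusted p = 0.0287). In HNRNPC it was 27.3, 23.6 and 31.4 CPM in the controls and 51.0, 55.1 and 47.3 CPM in the knockdowns (log2 fold change 0.90, SE 0.18, adjusted p = 0.0393). The groups were far apart in all 3 genes, and without a filter on low counts HNRNPC missed the threshold (adjusted p = 0.051). The median of this log2 fold change over all genes was 0.29. Of the 31-base words of HNRNPU retained-intron transcripts, 1.82% to 100% were in no coding HNRNPU transcript. The range was 9.77% to 71.6% in HNRNPH1 and 0% to 43.9% in HNRNPC. HNRNPC-207, the retained-intron HNRNPC transcript with the highest count, shared 39.2% of its words with HNRNPCP2, and HNRNPU-230 shared 29.35% with COX20. In HNRNPC-207 and HNRNPC-228, which had the highest counts of this type in HNRNPC, 10.5% and 3.97% of words were in no coding HNRNPC transcript. Among the HNRNPU transcripts with the highest counts of this type, these values were 48.2% in HNRNPU-231, 1.82% in HNRNPU-217 and 3.94% in HNRNPU-202. Many reads in these sums could thus have come from coding transcripts, in HNRNPC most of them, and some from other genes.

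The retained-intron sums of the other members did not pass. SYNCRIP had a log2 fold change of 1.83 (SE 0.58, adjusted p = 0.102), HNRNPM 0.59 (SE 0.47, adjusted p = 0.479) and HNRNPUL1 -1.70 (SE 0.47, adjusted p = 0.0762). Leaving out control replicate 1 gave 5 calls, with HNRNPM higher at 1.30 and HNRNPUL1 lower at -1.95 added. The share of all retained-intron sums called in that setting is not given here. In the gene test the same omission took the called share of all genes from 13.9% to 25.3%. Without control replicate 2 the log2 fold changes of the retained-intron sum were 0.21 in HNRNPM and -1.07 in HNRNPUL1. Leaving out any single library other than control replicate 1 gave 0 calls, with the log2 fold changes between 1.33 and 1.48 in HNRNPU, between 1.29 and 1.51 in HNRNPH1 and between 0.79 and 0.99 in HNRNPC.

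The coding sums of the same genes did not pass this expression test, although the coding class of HNRNPU passed the separate test of relative use described further on. The log2 fold change of the coding sum was -0.04 in HNRNPH1 (SE 0.27, adjusted p = 0.942), -0.02 in HNRNPC (SE 0.18, adjusted p = 0.95) and -0.80 in HNRNPU (SE 0.29, adjusted p = 0.139). No coding sum of a member passed, against 1.01% of 11524 genes higher and 5.88% lower, and the median over all genes was -0.19. The decay sum of HNRNPH1 rose, from 5.49, 4.49 and 9.65 CPM in the controls to 20.4, 21.3 and 17.9 CPM in the knockdowns (log2 fold change 1.60, SE 0.31, adjusted p = 0.0379), against 2.3% of 2917 genes. In HNRNPH3 the sum of the 9 noncoding transcripts rose from 12.1, 9.40 and 11.5 CPM to 22.5, 23.3 and 31.9 CPM (log2 fold change 1.23, SE 0.23, adjusted p = 0.0341), against 1.59% of 7557 genes. The coding HNRNPH3 transcripts had 8.17, 3.95 and 6.56 CPM in the controls and 8.34, 7.16 and 10.9 CPM in the knockdowns and did not pass (adjusted p = 0.396).

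As a share of the gene's counts, retained-intron transcripts made up 22.8%, 28.4% and 23.7% of HNRNPH1 in the controls against 52.5%, 51.2% and 35.4% in the knockdowns. In HNRNPU they made up 19.1%, 26% and 26% in the controls against 47.9%, 43.8% and 34.8% in the knockdowns. In HNRNPC the shares were 6.98%, 6.98% and 10.9% in the controls against 14.6%, 15.4% and 12.9% in the knockdowns. In all 3 genes, and in SYNCRIP, knockdown replicate 3 had the smallest share of the knockdowns yet was above every control. In SYNCRIP the shares were 5.08%, 1.29% and 6.71% in the controls against 10.3%, 14.2% and 8.45% in the knockdowns. In HNRNPUL1 they were 5.14%, 10.9% and 5.24% in the controls against 3.26%, 3.59% and 3.13% in the knockdowns, the reverse order. Each of these 5 comparisons had p = 0.1 in the two-sided exact permutation test, the smallest that 3 against 3 libraries can give, and HNRNPM (p = 0.5) overlapped. How often such shares do not overlap over all genes was not computed, so whether these members stand out cannot be said. Over all 4785 genes with a tested retained-intron sum, its log2 fold change was above 0 in 64.6%.

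**Figure D5:**
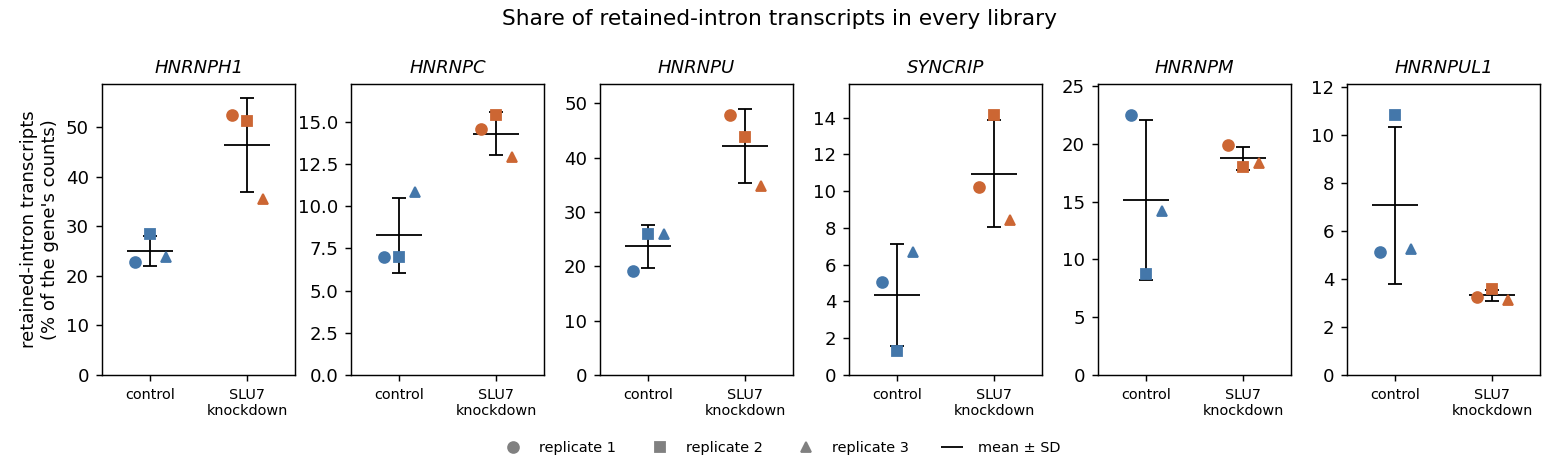
Retained-intron transcripts as a percentage of the gene's estimated counts (y axes, each starting at 0 and scaled by gene) in the 3 control and 3 knockdown libraries of 6 hnRNP genes; symbols give the replicate number and black bars the mean ± SD. The knockdowns are above the controls in HNRNPH1, HNRNPC, HNRNPU and SYNCRIP, overlap with them in HNRNPM and are below them in HNRNPUL1.

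Relative use of transcripts within a gene was tested with diffSpliceDGE. With the Simes method HNRNPH1 (adjusted p = 0.000536) and HNRNPC (adjusted p = 0.00272) passed, 2 of 9 members with more than 1 tested transcript, against 2.9% of 8869 genes. In each gene a single coding transcript passed on its own, where 0.89% of all transcripts did. HNRNPH1-203 had 228, 173 and 272 estimated counts in the controls and 0 in every knockdown (adjusted p = 0.000106). HNRNPC-226 had 15.3, 163 and 92.3 in the controls and 0 in every knockdown (adjusted p = 0.000889). Both are told from other transcripts by little sequence: 0.045% of the 31-base words of HNRNPH1-203 and 2.66% of those of HNRNPC-226 were in no other transcript. The main HNRNPH1 transcript, HNRNPH1-247, had 1795, 891 and 1112 in the controls against 770, 930 and 1231 in the knockdowns, which overlapped. Limma diffSplice, run as an alternative, called 0 members. In edgeR HNRNPH1 also passed when any single library was left out. HNRNPC lost its call when any library other than control replicate 1 was left out.

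The use of whole classes within a gene gave 1 member, HNRNPU, whose coding class lost share (log2 difference in use -0.96, adjusted p = 0.0392), as did 0.332% of 6627 coding classes (1.05% of all classes, and 2.5% of genes, changed in either direction). Coding transcripts made up 34.4%, 30.5% and 38.0% of HNRNPU in the controls against 19.3%, 12.3% and 9.09% in the knockdowns. The single transcript with the highest mean count was HNRNPU-228, annotated as a target of nonsense-mediated decay, with 1889, 928 and 912 estimated counts in the controls against 814, 1236 and 2089 in the knockdowns. Of its 31-base words 12.8% were in no coding HNRNPU transcript, so most reads that it was given could also have come from those. The HNRNPU call in the class test was lost without the coding HNRNPU-214, which had 956, 0 and 137 estimated counts in the controls against 0, 36.7 and 31.7 in the knockdowns. It was also lost without any single library other than control replicate 1. In HNRNPH1 the coding share went from 75.8%, 69.6% and 73.0% in the controls to 42.6%, 44.6% and 61.1% in the knockdowns and did not pass the class test (adjusted p = 0.676). The retained-intron class did not pass this class test in HNRNPH1, HNRNPC or HNRNPU. Its log2 difference in use was 0.62 in HNRNPH1 (adjusted p = 0.209), 0.57 in HNRNPC (adjusted p = 0.276) and 0.59 in HNRNPU (adjusted p = 0.282).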

How the data were processed

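The deposited estimated counts divide reads among transcripts, per the file headers, and are not normalized. TPM values were deposited beside them and rest on each transcript's effective length, per the file headers. Per the submitters' processing notes, the build was GRCh38 and the tools were kallisto 0.46.1, sleuth 0.30.0, Trimmomatic 0.38 and FastQC 0.11.8. Which annotation release and strand setting were used is not given in the sources used here. Per the labels, TRIzol RNA went into ScriptSeq libraries.

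Records of the pseudoautosomal region on Y (159) were added to those on X. Estimated counts were summed per gene and rounded. edgeR 4.0.16 (R 4.3.3) with TMM, filterByExpr (count 10, total 15) and the quasi-likelihood test of knockdown against control was fitted over all 6 libraries, with Benjamini-Hochberg adjustment at 0.05 over every gene (17109) or transcript (43128). Usage was tested with diffSpliceDGE. Scripts were tested on simulated data. Alternatives used RLE factors, other filters, a replicate block, each library left out, DESeq2 1.42.0, limma 3.58.1 (log2(TPM + 1), diffSplice), the gene-level usage test, length offsets, and a set without 273 structural and mitochondrial RNA genes. Transcript sequence was compared in words of 31 bases, and introns under 30 bases were left out.

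Members and lists were chosen with earlier results of these data known. All 10 members were named, with relatives and other hnRNP genes past the test, the 3 most abundant tested transcripts per member and transcripts past a test. HNRNPH1-212, HNRNPH1-223, HNRNPU-202, HNRNPU-214, HNRNPU-217, HNRNPC-228, HNRNPH3-207, HNRNPUL1-210 and SYNCRIP-212 were named after their values were seen.

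Replicate numbers did not pair the libraries by the check used: deviations of same-numbered libraries correlated at -0.413, 0.109 and -0.368. Each of the 10 genes matched GENCODE 29, which held none of the file versions of the SYNCRIP and HNRNPH2 transcripts.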

Additional observations from a re-analysis of the deposited data

How the results depend on the processing

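With the replicate number as a block, 0 members, 0 relatives and 0 other hnRNP genes passed the gene test, 1 member (HNRNPH1) the usage test, 0 the class test and 0 the retained-intron sum. Numbers did not pair the libraries, and no gene of all 17109 passed under that block. Without control replicate 1 and knockdown replicate 3, the counts were 8 members and 10 other hnRNP genes for the gene test, against 29.8% of all genes. In that setting 5 members passed for usage and 3 for classes. The shares of all genes called there for usage and classes are not given here, so these 2 counts cannot be compared with all genes. DESeq2 called 5 members (15.4% of all genes) and 14 member transcripts (3% of all transcripts). Length offsets called 0 members, 1 relative and 2 other hnRNP genes, against 5.65% of all genes. Limma on log2(TPM + 1) called HNRNPH3, SYNCRIP and HNRNPU higher, no member lower and 0 relatives, against 18.3% of all genes. Of all 17109 genes, 2985 were called higher and 150 lower on that scale, with a median log2 fold change of 0.352. No filter on low counts gave 2 member transcripts, where 94 of all 141024 transcripts were called, and 0 members in the class test. Limma diffSplice gave 0 members for usage, and dropping HNRNPU-214 gave 0 for classes.

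Leaving out each library gave 0 to 8 members, 0 to 2 relatives and 0 to 9 other hnRNP genes past the gene test. Of all genes, 0% to 25.3% passed it. The same omissions gave 1 to 5 members for usage, 0 to 1 for classes and 0 to 5 for the retained-intron sum. The shares of all genes called for usage, classes and the retained-intron sum in these settings are not given here. The log2 fold change of HNRNPH2 ran from -0.051 (without control replicate 2; -0.027 without control replicate 3) to 0.78 (without control replicate 1), that of HNRNPF from -0.028 (without knockdown replicate 3) to 0.23 (without knockdown replicate 1), and that of HNRNPUL1 turned to 0.53 in limma on log2(TPM + 1). The cause was not tested. HNRNPH3 stayed between 0.89 and 1.39 and SYNCRIP between 0.53 and 1.14 over 15 alternatives each, and each lost its call in 7. Reads were divided among transcripts that share sequence, which limits the values of single transcripts and the class sums and shares built from them. The small counts of many transcripts limit their values too.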
